A study of Mus musculus with 8 samples.

Results

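The genes described here are 10 inflammatory genes of fibroblasts: the acute-phase and complement genes *Saa3*, *Lcn2* and *C3*, the CC chemokines *Ccl2* and *Ccl7*, the CXC chemokines *Cxcl1*, *Cxcl5* and *Cxcl12*, and the cytokines *Il6* and *Csf1*. They were taken by gene symbol, and each was found among the 18990 genes with values. The 10 genes, and the pathway and marker lists used below, were chosen with earlier results of these data known. Shares of all tested genes are set beside their counts as a description. *Saa3* was chosen by its measured difference at day 3, so its values that involve day 3 are given as a description without a test. RNA-seq was measured in primary wild-type BL6 MEFs that were transduced with tet-STEMCCA, a lentivirus that expresses OCT4, SOX2, KLF4 and MYC (OSKM) when doxycycline is given, together with the rtTA activator. The cells were transfected with siRNA pools at 40 nM against *Ncor1*, which encodes a nuclear corepressor, or against *Oct4* (*Pou5f1*), and were collected after 3 or 6 days of reprogramming, and each of the 4 groups has 2 biological replicates. All 8 libraries came from cells in the same medium, with doxycycline at 2 ug/mL, the GSK3 inhibitor chiron at 3 uM, the TGF-beta receptor inhibitor Alk5i at 0.25 uM, ascorbic acid at 50 ug/mL and LIF, a cytokine of the IL-6 family. Libraries of the non-targeting siRNA were not analysed here, and the knockdowns and the days are therefore compared only with each other.

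Fibroblasts are an important source of inflammatory mediators in tissue. Stimuli such as IL-1, TNF and toll-like receptor ligands act through NF-kB and C/EBP factors to induce chemokines, *Il6* and acute-phase genes. The chemokines bind G protein-coupled receptors and attract leukocytes. IL-6 family cytokines signal through the shared receptor subunit gp130 to JAK kinases and STAT3, and M-CSF, the product of *Csf1*, sustains macrophages through its receptor CSF1R. These genes are known for low and inducible expression, except that *Csf1* and *Cxcl12* are often constitutive in stromal cells.

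On GRCm38, *Saa3* lies at chr7:46711998-46715700, *Lcn2* at chr2:32384633-32388252, *C3* at chr17:57203970-57228136 and *Csf1* at chr3:107741048-107760469, all on the minus strand. *Cxcl12* at chr6:117168535-117181367 and *Il6* at chr5:30013114-30019981 are on the plus strand. *Ccl2* at chr11:82035571-82037453 and *Ccl7* at chr11:82045712-82047525 are neighbours on the plus strand with 8258 bases between them. *Cxcl5* at chr5:90759360-90761624 and *Cxcl1* at chr5:90891241-90893115 share a chemokine cluster on the plus strand, with 129616 bases between them. All 10 are annotated as protein coding. *Ccl2* overlaps *Gm17268* on the other strand and *C3* holds the microRNA gene *Mir6978*, and whether reads were counted by strand is not given in the sources used here. Reads that match more than 1 gene of the serum amyloid or chemokine families could also have been assigned in different ways.

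RefSeq promoter sequences (GRCm38.p6) were matched for 7 of the 10 genes, and *Ccl2*, *Ccl7* and *Cxcl5* had no entry. The 250 bases before the RefSeq start were searched on both strands for the NF-kB consensus, for the C/EBP motif TTNNGCAA and for the AP-1 motif TGANTCA. The RefSeq start is not always that of the gene bounds given above, which are from GENCODE, so the window of *Lcn2* lies inside those bounds and those of *Saa3* and *Cxcl1* overlap their edge. The NF-kB consensus was found in 3 of 7, against 3.90% of 32851 promoter windows of the same length. The C/EBP motif was found in 4 of 7, against 9.56% of all windows, and the AP-1 motif in 1 of 7, against 6.75%. *Csf1* held a match to the NF-kB consensus and *Lcn2* a match to the C/EBP motif, and *Cxcl12* held none of the 3. The 4 windows printed here are those of *Saa3* and *C3*, the genes with the largest differences between the knockdowns at day 3 among the genes with at least 1 CPM (reads scaled to the library size) on average, and those of *Cxcl1* and *Il6*, which hold the NF-kB consensus. They are on chr7:46715677-46715926 (minus strand), chr17:57228137-57228386 (minus strand), chr5:90890995-90891244 (plus strand) and chr5:30012864-30013113 (plus strand), in that order, and are written 5′ to 3′ with every motif match in capitals.
Saa3: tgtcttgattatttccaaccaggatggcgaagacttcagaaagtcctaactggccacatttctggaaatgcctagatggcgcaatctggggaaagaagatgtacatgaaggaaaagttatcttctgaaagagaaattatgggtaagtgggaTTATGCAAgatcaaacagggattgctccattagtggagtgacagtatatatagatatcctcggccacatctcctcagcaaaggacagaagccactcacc
C3: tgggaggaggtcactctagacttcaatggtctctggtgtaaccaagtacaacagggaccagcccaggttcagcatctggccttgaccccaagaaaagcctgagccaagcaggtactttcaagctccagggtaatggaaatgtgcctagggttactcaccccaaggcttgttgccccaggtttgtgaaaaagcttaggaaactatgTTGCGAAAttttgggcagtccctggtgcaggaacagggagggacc
Cxcl1: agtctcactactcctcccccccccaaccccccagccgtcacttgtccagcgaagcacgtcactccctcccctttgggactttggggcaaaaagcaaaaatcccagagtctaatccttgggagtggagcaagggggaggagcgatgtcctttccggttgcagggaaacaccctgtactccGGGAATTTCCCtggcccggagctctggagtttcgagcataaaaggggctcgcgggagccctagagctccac
Il6: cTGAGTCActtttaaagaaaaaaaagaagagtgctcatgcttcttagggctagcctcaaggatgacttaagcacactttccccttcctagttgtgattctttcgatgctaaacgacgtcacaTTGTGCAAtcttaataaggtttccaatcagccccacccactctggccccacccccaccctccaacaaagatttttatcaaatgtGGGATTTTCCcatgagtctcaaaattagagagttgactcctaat

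In *Saa3* and *C3* the capitals mark 1 C/EBP match each, which begins 99 and 45 bases before the start. In *Cxcl1* they mark a pair of overlapping matches to the NF-kB consensus, at 71 and 70 bases. In *Il6* they mark an AP-1 match at 249 bases, a C/EBP match at 128 bases and an NF-kB match at 44 bases. These matches describe the letters of the windows, and no binding was measured.

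Libraries held between 7735742 and 16445192 reads on genes, with the fewest in the library labelled *siOct4* day 3 replicate 2, and 3 reads in a gene correspond to between 0.174 and 0.380 CPM. Values are log2-cpm, the log2 of CPM with a constant of 0.136 CPM added, so fold changes of low genes are understated. Differences were tested with limma over the 13866 genes whose mean reached 1 CPM, and a gene is called where its Benjamini-Hochberg adjusted p over all of them was under 0.05. Knockdown differences are given as *siOct4* minus *siNcor1* and day differences as day 6 minus day 3, each from 2 libraries per group. *Ncor1* was 40.3% lower in *siNcor1* than in *siOct4* at day 3 (a log2 difference of 0.74, SE 0.12, adjusted p = 0.0139) and did not pass the test at day 6 (−0.042, adjusted p = 0.815). *Pou5f1*, whose reads include those of the cassette, differed by −0.076 at day 3 (adjusted p = 0.941) and was higher by 1.78 in *siOct4* at day 6 (adjusted p = 1.1e-04). It goes against the label at day 6, so the directions given here rest on the labels, and *siOct4* stands for the libraries labelled so. Values were listed for 10 of 10 fibroblast markers, and their summed level was between 10940 and 11271 CPM in *siNcor1* and between 14172 and 16533 CPM in *siOct4* at day 3, and between 7604 and 8032 CPM in *siNcor1* and between 4350 and 4437 CPM in *siOct4* at day 6. In bulk samples, fewer cells of a type and less RNA per cell cannot be told apart.

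Leaving out *Saa3*, which was chosen by its day 3 value, and *Il6*, which passed the filter on low values only through the *siOct4* day 3 libraries, 6 of the 7 other tested genes were higher in *siOct4* than in *siNcor1* by value at day 3 and lower at day 6, against 29.4% of all tested genes. The exception was *C3*. The plot of the values by library shows each gene. On a scale per length, *Csf1* had the highest level at day 3 in *siNcor1* with 55.2 CPM per kb of exon, followed by *Cxcl5* with 46.9 and *Ccl7* with 39.5. *Ccl2* had 13.0, *Cxcl12* had 8.64, *Cxcl1* had 6.54 and *C3* had 1.52 CPM per kb. *Il6*, *Saa3* and *Lcn2* were below 1 CPM per kb in that group, with 0.804, 0.320 and 0.0346.

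**Figure D1:**
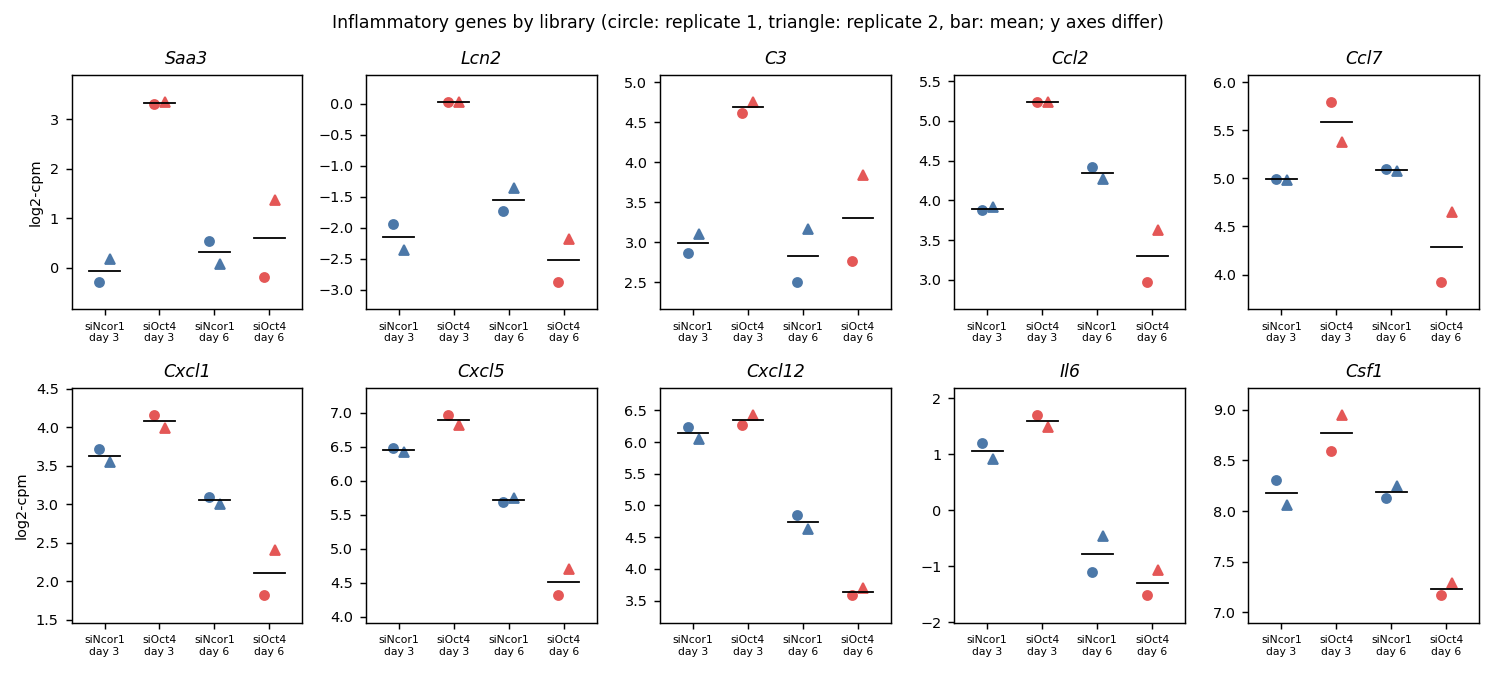
Log2-cpm (y axis) of the 10 inflammatory genes in the 8 libraries, 1 panel per gene, with the 4 groups on the x axis, points for libraries and bars for the mean of 2 libraries. The libraries labelled *siOct4* at day 3 are the highest in every panel, which for *Saa3* follows from how it was chosen, and *siOct4* at day 6 is the lowest group except for *Saa3* and *C3*.

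By value, *Saa3*, *Lcn2* and *C3* had the largest differences of the 10 between the knockdowns at day 3, which for *Saa3* follows from how it was chosen. *Saa3* encodes a serum amyloid A protein that mouse fibroblasts, adipocytes and macrophages make during inflammation. In *siNcor1* at day 3 it had −0.29 and 0.17 log2-cpm, from 11 and 17 reads, and in the libraries labelled *siOct4* it had 3.32 and 3.36, from 145 and 80 reads. At day 6 it had 0.54 and 0.085 in *siNcor1*, from 16 and 11 reads, and −0.19 and 1.38 in *siOct4*, from 7 and 29 reads. The day 3 *siOct4* libraries stood above the other 6, which were between −0.29 and 1.38. The day 3 difference of 3.40 on the log2 scale, or 10.6-fold, is the value by which *Saa3* was chosen. Within *siOct4*, *Saa3* was lower by 2.74 on the log2 scale at day 6 than at day 3, and within *siNcor1* it was higher by 0.38 with overlapping replicates, and these values rest on the same day 3 libraries and were not tested. At day 6, which the choice did not use, the knockdowns differed by 0.28 (SE 0.45, 95% interval −0.70 to 1.26, adjusted p = 0.670). This value depended on the libraries labelled *siOct4* at day 6, since the difference was 1.06 without replicate 1 (adjusted p = 0.0470) and −0.51 without replicate 2 (adjusted p = 0.340).

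*Lcn2*, which encodes the siderophore-binding protein lipocalin 2, was too low for the test, with a mean of 0.306 CPM over the 8 libraries and no library at 1 CPM. It had 2 and 1 reads in *siNcor1* at day 3 and 13 and 7 reads in *siOct4*, and at day 6 it had 2 and 3 reads in *siNcor1* and 0 and 1 in *siOct4*. The day 3 *siOct4* libraries were again the highest, at 0.024 and 0.032 log2-cpm. With reads summed over replicates, the ratio of *siOct4* to *siNcor1* was 9.83 at day 3 (exact 95% interval 2.91 to 51.6, from 20 and 3 reads) and 0.226 at day 6 (0.00478 to 2.02, from 1 and 5 reads). The ratio of day 6 to day 3 was 0.0533 in *siOct4* (0.00129 to 0.333) and 2.32 in *siNcor1* (0.451 to 14.9). These intervals cover counting error only and not the spread between replicates.

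*C3*, the central component of the complement cascade, had 2.87 and 3.11 log2-cpm in *siNcor1* at day 3 and 4.62 and 4.76 in *siOct4*. At day 6 it had 2.50 and 3.16 in *siNcor1* and 2.76 and 3.84 in *siOct4*. The groups did not overlap at day 3 and did at day 6. *C3* was 3.25-fold higher in *siOct4* at day 3 (a log2 difference of 1.70, SE 0.31, adjusted p = 0.0235), but the call was lost when any of the 4 day 3 libraries was left out, while the difference stayed between 1.58 and 1.82 and the adjusted p was between 0.106 and 0.226. It fell by 1.39 on the log2 scale from day 3 to day 6 in *siOct4* (SE 0.31, adjusted p = 0.00270), where the difference was −0.85 without *siOct4* day 6 replicate 1, and in *siNcor1* its difference was −0.15 (SE 0.31, 95% interval −0.83 to 0.52, adjusted p = 0.732). At day 6 the knockdowns differed by 0.47 (SE 0.31, 95% interval −0.21 to 1.14, adjusted p = 0.275). That value was 1.01 (adjusted p = 0.0116) without *siOct4* day 6 replicate 1 and −0.070 (adjusted p = 0.860) without replicate 2. Its knockdown difference changed from day 3 to day 6 by −1.23 (SE 0.44, adjusted p = 0.0656), and it passed the threshold without *siOct4* day 6 replicate 2 (−1.77, adjusted p = 0.00236) and without *siNcor1* day 6 replicate 1 (−1.56, adjusted p = 0.0465).

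Both CC chemokines had their highest values in *siOct4* at day 3 and their lowest in *siOct4* at day 6. *Ccl2* (MCP-1), the main attractant of CCR2-expressing monocytes, had 3.88 and 3.92 log2-cpm in *siNcor1* at day 3 and 5.24 in both libraries labelled *siOct4*. At day 6 it had 4.42 and 4.26 in *siNcor1* and 2.97 and 3.63 in *siOct4*. No pair of neighbouring groups overlapped, and the order from high to low was *siOct4* day 3, *siNcor1* day 6, *siNcor1* day 3 and *siOct4* day 6. *Ccl2* was 2.54-fold higher in *siOct4* at day 3 (a log2 difference of 1.35, SE 0.20, adjusted p = 0.00880) and 2.06-fold lower at day 6 (−1.04, SE 0.20, adjusted p = 0.00287). As for *C3*, the day 3 call was lost without any 1 of the day 3 libraries, with differences between 1.32 and 1.37 and adjusted p-values between 0.0607 and 0.131. It fell by 1.94 on the log2 scale from day 3 to day 6 in *siOct4* (SE 0.20, adjusted p = 1.2e-05), and its difference in *siNcor1* was 0.44 (SE 0.20, adjusted p = 0.0980). The latter passed the threshold without either *siOct4* day 6 library (adjusted p = 0.0141 and 0.0153) and in a fit of only the groups compared (adjusted p = 0.0223), each with the difference at 0.44.

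*Ccl7* (MCP-3), a related monocyte attractant encoded next to *Ccl2*, had 4.997 and 4.99 log2-cpm in *siNcor1* at day 3 and 5.80 and 5.38 in *siOct4*. At day 6 it had 5.10 and 5.08 in *siNcor1* and 3.92 and 4.65 in *siOct4*. The groups did not overlap, and *siOct4* was the higher group at day 3 and the lower one at day 6. The day 3 difference of 0.60 did not pass the test (SE 0.21, adjusted p = 0.275), except without either *siOct4* day 6 library, where the adjusted p was 0.0387 or 0.0408. *Ccl7* was 1.74-fold lower in *siOct4* at day 6 (−0.80, SE 0.21, adjusted p = 0.0151). This call did not hold without *siOct4* day 6 replicate 1 (−0.44, adjusted p = 0.0710) or without *siNcor1* day 6 replicate 1 or 2 (adjusted p = 0.0655 and 0.0802). *Ccl7* fell by 1.30 on the log2 scale between the days in *siOct4* (SE 0.21, adjusted p = 3.4e-04), against a difference of 0.098 in *siNcor1* (SE 0.21, 95% interval −0.37 to 0.56, adjusted p = 0.752).

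The CXC chemokines were lower at day 6 than at day 3 in every library, and all 3 were lower in *siOct4* than in *siNcor1* at day 6. *Cxcl1* (KC), which attracts neutrophils through CXCR2, had 3.71 and 3.55 log2-cpm in *siNcor1* and 4.16 and 3.996 in *siOct4* at day 3, and 3.10 and 3.01 in *siNcor1* and 1.81 and 2.41 in *siOct4* at day 6. Its 4 groups did not overlap. The difference of 0.45 at day 3 did not pass the test (SE 0.21, adjusted p = 0.504), and *Cxcl1* was 1.92-fold lower in *siOct4* at day 6 (−0.94, SE 0.21, adjusted p = 0.00737). Between the days it fell by 1.97 on the log2 scale in *siOct4* (SE 0.21, adjusted p = 2.0e-05), and in *siNcor1* its difference of −0.58 lay close to the threshold (SE 0.21, adjusted p = 0.0546). The adjusted p of that difference was between 0.0116 and 0.229 over the alternatives, and it passed the threshold without either *siOct4* day 6 library (0.0116 and 0.0127), with a pseudocount of 1 CPM (0.0462), with quantile normalization (0.0245), with voom (0.0302) and with only the groups compared (0.0134).

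*Cxcl5* (LIX), another CXCR2 ligand, was the most abundant chemokine per length at day 3 in *siNcor1*. It had 6.48 and 6.43 log2-cpm in *siNcor1* and 6.97 and 6.82 in *siOct4* at day 3, and 5.68 and 5.75 in *siNcor1* and 4.31 and 4.70 in *siOct4* at day 6. The 4 groups were again apart from each other. *Cxcl5* was 2.31-fold lower in *siOct4* at day 6 (−1.21, SE 0.14, adjusted p = 3.6e-04), and its day 3 difference was 0.45 (SE 0.14, adjusted p = 0.203), which passed the threshold without either *siOct4* day 6 library (adjusted p = 0.0426 and 0.0428). It fell between the days in both knockdowns, with log2 differences of −0.73 in *siNcor1* (SE 0.14, adjusted p = 0.00226) and −2.39 in *siOct4* (SE 0.14, adjusted p = 3.0e-07).

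*Cxcl12* (SDF-1) is the stromal ligand of CXCR4, which retains stem cells in their niche. It had 6.23 and 6.06 log2-cpm in *siNcor1* and 6.26 and 6.43 in *siOct4* at day 3, and 4.86 and 4.63 in *siNcor1* and 3.58 and 3.70 in *siOct4* at day 6. At day 3 the lower *siOct4* library was only slightly above the higher *siNcor1* library, and at day 6 the groups were well apart. The difference was 0.20 at day 3 (SE 0.14, 95% interval −0.10 to 0.50, adjusted p = 0.727), and *Cxcl12* was 2.14-fold lower in *siOct4* at day 6 (−1.10, SE 0.14, adjusted p = 4.6e-04). It fell 2.64-fold between the days in *siNcor1* (−1.40, SE 0.14, adjusted p = 4.7e-05) and 6.50-fold in *siOct4* (−2.70, SE 0.14, adjusted p = 1.4e-07).

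*Il6*, the cytokine that drives the hepatic acute-phase response, was low in all libraries. It had 1.20 and 0.91 log2-cpm in *siNcor1* at day 3, from 35 and 30 reads, and 1.70 and 1.48 in *siOct4*, from 46 and 21 reads. At day 6 it had −1.10 and −0.46 in *siNcor1*, from 4 and 7 reads, and −1.52 and −1.07 in *siOct4*, from 2 and 4 reads. All day 3 libraries were above all day 6 libraries, and the knockdowns overlapped at day 6. *Il6* had a mean of 1.39 CPM, and 0.896 CPM without the *siOct4* day 3 libraries, so it passed the filter only because of the group where it was highest. Its tests are therefore given over all 18990 genes with no filter. There *Il6* fell between the days, with log2 differences of −1.84 in *siNcor1* (adjusted p = 0.00556) and −2.89 in *siOct4* (adjusted p = 1.4e-04), each with an SE of 0.40 in the filtered fit. With a pseudocount of 1 CPM these differences were −1.02 and −1.61. Its differences between the knockdowns with no filter were 0.54 at day 3 (adjusted p = 0.785) and −0.52 at day 6 (adjusted p = 0.386), with 95% intervals of −0.34 to 1.41 and −1.39 to 0.36 in the filtered fit. The change of its difference from day 3 to day 6 was −1.05 (adjusted p = 0.237 with no filter).

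*Csf1* encodes M-CSF and had the highest mean level per length of the 10 genes in each of the 4 groups. It was below *Ccl7* in *siOct4* day 6 replicate 2, with 29.5 against 31.3 CPM per kb. It had 8.31 and 8.06 log2-cpm in *siNcor1* and 8.59 and 8.95 in *siOct4* at day 3, and 8.13 and 8.25 in *siNcor1* and 7.17 and 7.29 in *siOct4* at day 6. The *siNcor1* libraries of both days overlapped, and the libraries labelled *siOct4* lay above them at day 3 and below them at day 6. *Csf1* was 1.95-fold lower in *siOct4* at day 6 (−0.96, SE 0.15, adjusted p = 9.8e-04), and the day 3 difference of 0.58 did not pass the test (SE 0.15, adjusted p = 0.0905) except without either *siOct4* day 6 library (adjusted p = 0.0400 and 0.0403). It fell by 1.54 on the log2 scale between the days in *siOct4* (SE 0.15, adjusted p = 7.5e-06) and differed by 0.0069 in *siNcor1* (SE 0.15, 95% interval −0.31 to 0.33, adjusted p = 0.976).

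Of the 7 tested genes other than *Saa3* and *Il6*, *C3* and *Ccl2* were called higher in *siOct4* at day 3 and none lower, against 0.375% of all 13866 tested genes called higher and 0.692% called lower. The replicates did not overlap for these 7, each with *siOct4* above, against 20.7% of tested genes. The median difference over the 7 was 0.58, and over all tested genes it was −0.021. Both called genes lost their call without any 1 of the day 3 libraries, as given above, and in limma without a trend (adjusted p = 0.122 for *C3* and 0.0653 for *Ccl2*). In a limma fit of only the groups compared, both were called (adjusted p = 0.00127 each). Summed fibroblast markers were also higher in *siOct4* at day 3, with 0 of 10 called. Of 6 epithelial markers, 4 were called lower in *siOct4* and none higher, against 0.692% and 0.375% of all tested genes. The part of both sets of markers in these differences was not tested.

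At day 6, 6 of 9 tested genes were called lower in *siOct4* (*Ccl2*, *Ccl7*, *Cxcl1*, *Cxcl5*, *Cxcl12* and *Csf1*) and none higher, against 18.6% of tested genes called lower and 12.1% called higher. For the same 6 the replicates did not overlap, against 34.8% of tested genes with *siOct4* below. The median difference over the 9 was −0.94, against −0.025 over all tested genes. Without *Saa3* and *Il6*, 6 of 7 were called lower and the median was −0.96. *Saa3*, *C3* and *Il6* were not called and their replicates overlapped. Fibroblast markers moved in the same direction, with 8 of 10 called lower in *siOct4*, and their part was not tested. Summed epithelial markers were also lower in *siOct4* at day 6, at 272 to 299 CPM against 658 to 691 CPM in *siNcor1*. In the libraries labelled *siOct4* at day 6, replicate 2 was above replicate 1 for 10 of 10 genes, by 0.12 to 1.57 with a median of 0.62, against 57.6% of all tested genes with a median of 0.072.

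**Figure D2:**
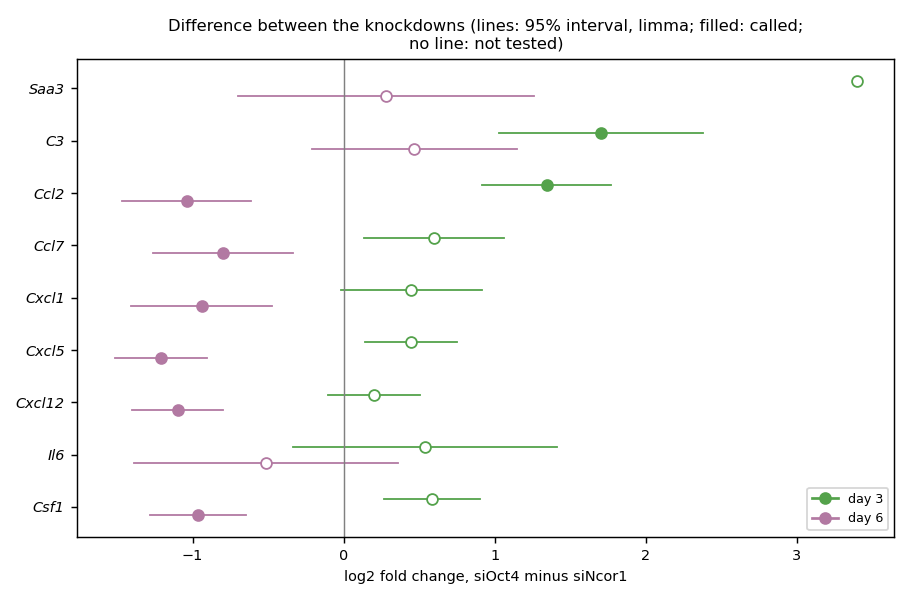
Log2 difference of *siOct4* minus *siNcor1* (x axis) for each of 9 genes (y axis, without *Lcn2*) at day 3 (green) and day 6 (purple), with 95% intervals from the limma fit. Filled points passed adjusted p under 0.05, open points did not or, without a line, were not tested, and leaving out *Saa3* and *Il6*, 6 of 7 genes lie above 0 at day 3 and below 0 at day 6, against 29.4% of all tested genes.

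The change of the knockdown difference from day 3 to day 6 was called for 6 of 7 genes (without *Saa3* and *Il6*), all in the direction of a lower value at day 6, against 12.9% of tested genes called in that direction and 7.77% in the other. It was −2.39 for *Ccl2* (SE 0.28, adjusted p = 6.3e-04), −1.66 for *Cxcl5* (SE 0.20, adjusted p = 6.4e-04), −1.55 for *Csf1* (SE 0.21, adjusted p = 9.0e-04) and −1.30 for *Cxcl12* (SE 0.20, adjusted p = 0.00151). It was −1.40 for *Ccl7* (SE 0.30, adjusted p = 0.00835) and −1.39 for *Cxcl1* (SE 0.30, adjusted p = 0.00900), and these 2 lost their call without *siNcor1* day 3 replicate 2 (adjusted p = 0.0507 and 0.0586). A value above 0 at day 3 and below 0 at day 6 with a called change was found for 11.7% of all tested genes.

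Between the days the knockdowns showed different patterns. In *siOct4*, 7 of 7 tested genes other than *Saa3* and *Il6* fell from day 3 to day 6, against 30.5% of tested genes called lower and 22.2% called higher, with a median difference of −1.94 against −0.079 over all tested genes. Their replicates did not overlap either, against 42.1% of tested genes with day 6 below. In *siNcor1*, 2 of the same 7 fell (*Cxcl5* and *Cxcl12*) and none rose, against 20.9% of tested genes called lower and 13.8% called higher, with a median of −0.15 against −0.068. The replicates did not overlap for 2 genes with day 6 above in *siNcor1* (*Ccl2* and *Ccl7*) and for 3 with day 6 below (*Cxcl1*, *Cxcl5* and *Cxcl12*), against 31.4% and 41.7% of tested genes. These comparisons use the same libraries as those between the knockdowns. Summed fibroblast markers were lower at day 6 in both knockdowns. By gene, in *siNcor1* 5 of 10 were called higher and 3 lower, with a median of 0.30, and in *siOct4* 2 were called higher and 6 lower. The sum of 6 epithelial markers was higher at day 6 than at day 3. At day 3 it was between 54.9 and 56.7 CPM in *siNcor1* and between 17.5 and 18.9 CPM in *siOct4*. The share of reads taken by the non-coding gene *Gm26917* was between 15.5% and 16.6% at day 3. At day 6 it was 21.7% and 20.3% in *siNcor1* and 29.1% and 23.9% in *siOct4*, for replicates 1 and 2. The part of these values in the day differences, and in the differences between the knockdowns at day 6, was not tested.

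**Figure D3:**
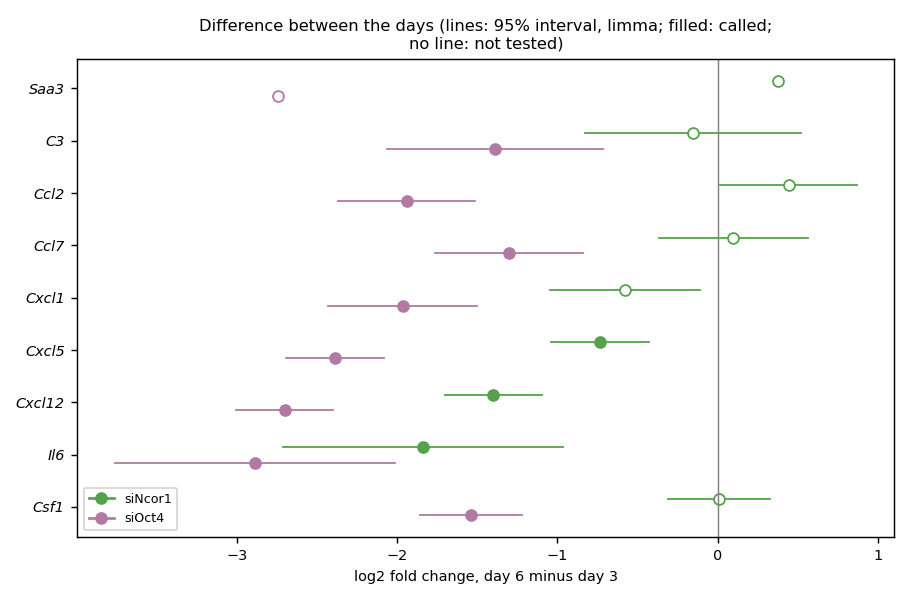
Log2 difference of day 6 minus day 3 (x axis) for each of 9 genes (y axis, without *Lcn2*) in *siNcor1* (green) and *siOct4* (purple), with 95% intervals from the limma fit, filled where adjusted p was under 0.05 and without a line where not tested. In *siOct4* the 7 tested genes other than *Il6* lie below 0 with intervals apart from 0, and in *siNcor1* *Cxcl5* and *Cxcl12* are filled besides *Il6*, which passed the filter only through *siOct4* at day 3.

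The genes whose profile over the 8 libraries was most like that of *Saa3*, by the root mean square difference of centred log2-cpm, were *C3* (0.710), the Ras family GTPase gene *Diras2* (0.773), *Car8* (0.787), which encodes a carbonic anhydrase-related protein, the immune receptor gene *Havcr2* (0.840) and the BMP family ligand gene *Gdf6* (0.894). *C3* was thus the closest of 13865 other tested genes, *Ccl2* was at rank 9 with 0.928, and the other 6 tested genes of the 10 were between ranks 152 and 4812. This is a description, since the day 3 libraries by which *Saa3* was chosen are among the 8.

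Other genes of these pathways were followed with lists of 181 genes, of which 136 had values and 110 passed the filter. Between the knockdowns at day 3, 1 of 110 was called higher in *siOct4* (0.909%, against 0.375% of all tested genes) and none lower (against 0.692%). The median difference was 0.15, and the called gene was the serpin gene *Serpina3g* (1.02, SE 0.18, adjusted p = 0.0231). This call was lost without any 1 of the day 3 libraries, and without either *siOct4* day 6 library 7 genes were called higher and 1 lower. At day 6, 4 were higher and 56 lower in *siOct4*, with a median of −0.66, against −0.025 over all tested genes. These were 50.9% lower and 3.64% higher, against 18.6% and 12.1% of all tested genes. In *siNcor1*, 24 rose and 24 fell between the days, 21.8% in each direction, against 13.8% and 20.9% of all tested genes, so the share that fell was near the background. In *siOct4*, 10 rose and 55 fell, or 9.09% and 50.0%, against 22.2% and 30.5%. The medians were 0.12 in *siNcor1* and −0.50 in *siOct4*, against −0.068 and −0.079. The change of the knockdown difference was called for 1 gene towards higher and 55 towards lower values at day 6, with a median of −0.81, where 7.77% and 12.9% of all tested genes were called. All genes of these lists that are named as higher, lower, risen or fallen passed adjusted p under 0.05 with replicates that did not overlap.

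Among acute-phase and complement genes, 13 of 21 tested were lower in *siOct4* at day 6 and none higher (61.9% lower, against 18.6% of all tested genes). *Ptx3*, a long pentraxin made by fibroblasts, was 2.88-fold lower (−1.53, SE 0.16, adjusted p = 2.2e-04), and the haptoglobin gene *Hp* was 2.57-fold lower (−1.36, SE 0.27, adjusted p = 0.00392). *Ptx3* also fell between the days, with log2 differences of −2.17 in *siNcor1* and −4.31 in *siOct4*. In *siNcor1*, 5 of 21 rose (23.8%, against 13.8% of all tested genes) and 3 fell (14.3%, against 20.9%). Those that rose include the complement regulator gene *Cd59a* (2.38) and the complement component gene *C4b* (1.64). In *siOct4*, 2 rose and 10 fell (47.6%, against 30.5%).

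Of the other chemokines, 4 of 8 tested were lower in *siOct4* at day 6 (against 18.6%), among them the neutrophil attractant gene *Cxcl3* (−1.65, SE 0.43, adjusted p = 0.0144). *Cxcl3* was low there, with at most 6 reads in a *siOct4* library and at most 27 in a *siNcor1* library. In *siNcor1*, 3 of 8 rose between the days (37.5%, against 13.8% of all tested genes) and 2 fell (25%, against 20.9%). *Ccl8*, which encodes a further monocyte-attracting chemokine, rose by 2.13 and the transmembrane chemokine gene *Cxcl16* by 1.26. Both were low at day 3, with at most 18 and 22 reads in a library. In *siOct4* none rose and 2 fell, which at 25% is below the 30.5% of all tested genes that fell. Of the chemokine receptors, 3 were tested, and *Ackr3*, the scavenging receptor of CXCL12, was lower in *siOct4* at day 6 (−1.04, SE 0.20, adjusted p = 0.00324).

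In the list of IL-6 family and colony-stimulating factor genes, 11 of 19 tested genes were lower in *siOct4* at day 6 and none higher (57.9% lower, against 18.6% of all tested genes). *Osmr*, the oncostatin M receptor gene, was 2.33-fold lower (−1.22, SE 0.19, adjusted p = 0.00112), and *Lifr*, the receptor gene for the LIF in the medium, differed by −1.17. *Il6st*, which encodes gp130, fell between the days with log2 differences of −0.92 in *siNcor1* and −1.98 in *siOct4*. In *siNcor1* the ligand genes *Il11* (2.02) and *Ctf1* (1.46) rose, from at most 10 and 18 reads in a day 3 library.

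Of the 27 tested genes of IL-1, IL-17, TNF and toll-like receptor signalling, 11 were lower (40.7%) and 1 higher in *siOct4* at day 6, where 18.6% of all tested genes were lower and 12.1% higher. The IL-1 receptor gene *Il1r1* was 2.18-fold lower (−1.12, SE 0.19, adjusted p = 0.00150) and *Il1rn*, which encodes the receptor antagonist, differed by −1.26, and the IL-17 receptor gene *Il17ra* was the 1 that was higher (0.44). Of 20 tested NF-kB and C/EBP factors and feedback genes, 7 were lower (35.0%), with *Bcl3* at −0.89 and *Zfp36* at −0.88, and 1 was higher, the inhibitor gene *Nfkbib* (0.56). *Tnfaip3* (A20), a feedback inhibitor of NF-kB, fell between the days, with log2 differences of −1.21 and −2.16 in *siNcor1* and *siOct4*. Of 12 tested effectors, 9 were lower in *siOct4* at day 6 (75%), among them the collagenase gene *Mmp13* (−1.35), and 2 were higher, *Sod2* (0.51) and *Gch1* (0.54). The stromelysin gene *Mmp3* rose between the days in both knockdowns, by 3.75 on the log2 scale in *siNcor1* and 2.46 in *siOct4*, and the adhesion molecule gene *Vcam1* fell in both, with log2 differences of −1.11 and −2.23.

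**Figure D4:**
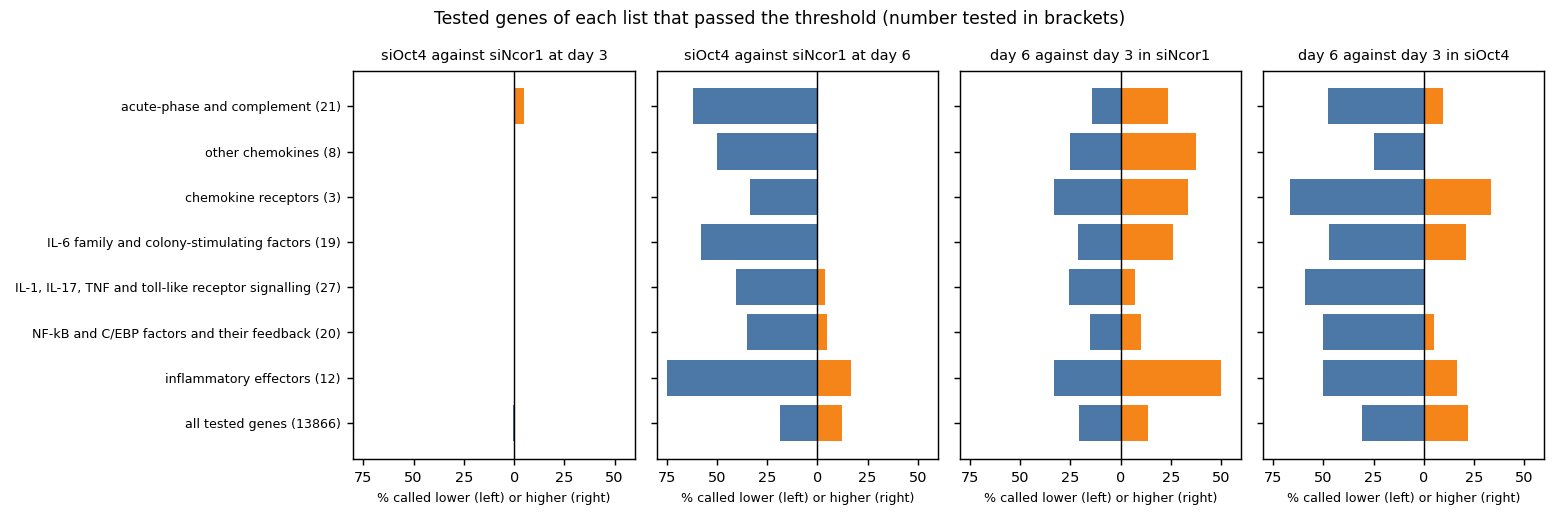
Percentage of tested genes (x axis) called lower (bars to the left) or higher (bars to the right) in each pathway list and among all tested genes (y axis), with 1 panel per comparison. At day 6 the bars of *siOct4* against *siNcor1* lie mainly to the left, with 56 of 110 pathway genes lower and 4 higher, and at day 3 only 1 gene was called.

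Leukocyte markers were at low levels. Values were listed for 8 of 15 macrophage markers, and their summed level was between 7.83 and 15.3 CPM, with the highest in *siOct4* at day 6. Of these, 4 were tested and 0 were called between the knockdowns on either day. Between the days, 1 was called higher and 0 lower in *siNcor1*, against 13.8% and 20.9% of all tested genes. In *siOct4*, 2 were called higher and 1 lower, against 22.2% and 30.5%. None of 7 neutrophil markers was analysed here, and 5 of 6 endothelial markers summed to between 16.4 and 44.4 CPM.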

How the data were processed

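RNA-seq libraries were prepared with a ribosomal RNA depletion kit from 200 ng of total RNA. The authors aligned reads with STAR 2.5.2b to mm10 (GRCm38) and deposited log2-cpm values, which were computed with edgeR 3.20.9 (versions from the submitters' processing notes). The tool that counted reads on genes and its annotation are not given in the sources used here. Subtracting a constant of 0.136 CPM from the linear values gave whole reads, within 0.1 read, for 100% of values, which gave the depths. The counts of replicates in a group differed beyond counting noise, with a chi-square of 8.44 to 18.7 per degree of freedom.

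Genes were tested if their mean CPM was 1 or more, which 13866 of 18990 met. The test was made with limma 3.58.1 (R 4.3.3, lmFit and eBayes with a trend) on the deposited log2 values, two-sided, with the 4 groups in one fit and Benjamini-Hochberg adjustment over all tested genes at 0.05, without a replicate block. Of the 10 genes, 9 passed the filter. The *siOct4* libraries are called so by their labels throughout. Intervals are 95% and rest on 2 libraries per group. Coordinates came from GENCODE M21, in which 18969 identifiers were matched. The 10 genes, the pathway lists and the marker lists were chosen with earlier results of these data known. From each pathway list and comparison, up to 2 genes with the largest positive and up to 2 with the largest negative difference were eligible to be named if they passed the threshold and had no overlap of replicates. For *Saa3*, the 5 genes with the closest profile were named. Alternatives were no trend, no filter, at least 10 CPM, a pseudocount of 1 CPM, median centring, quantile normalization, limma voom on the recovered reads, only the groups compared, the replicate number as a block, and leaving out each library. The fit was also run on simulated data, only for the knockdown difference at day 6 and with the same replicate variation set for all genes and groups. It therefore does not bear on the other comparisons or on groups that differ in spread. Figures were drawn with matplotlib 3.10.9.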

Additional observations from a re-analysis of the deposited data

Results flagged for a closer look

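The difference between the knockdowns was not the same at day 3 and day 6 for 6 of the 7 genes tested for it other than *Il6*. The change, as the day 6 difference minus the day 3 difference on the log2 scale from the limma interaction term, was −2.39 for *Ccl2*, −1.40 for *Ccl7*, −1.39 for *Cxcl1*, −1.66 for *Cxcl5*, −1.30 for *Cxcl12* and −1.55 for *Csf1*. Each of these genes had a positive difference at day 3 and a negative one at day 6, and 12.9% of all tested genes had a called change in this direction. Summed fibroblast markers had the same order of groups as *Cxcl1*, *Cxcl5* and *Cxcl12*. By gene, however, 5 of 10 of these markers were called higher at day 6 than at day 3 in *siNcor1* and 3 lower. The part of the markers in the change was not tested.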

How the results depend on the processing

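At day 3, the 148 genes called became 43 without a trend and 81 with at least 10 CPM, and between 3 and 375 without 1 library. Of the inflammatory genes described, the 2 called became 0 without a trend (0 to 5 without 1 library), and the pathway genes called, 1, became 0 without a trend, 2 after median centring or quantile normalization, 4 with voom and 7 with only the groups compared (0 to 8). With voom 55.1% of the genes called at day 3 were higher, against 35.1%. Without 1 library, the counts of all genes, of these inflammatory genes and of pathway genes called were 1398 to 4669, 5 to 7 and 33 to 70 at day 6 (4251, 6 and 60 with all libraries). They were 2360 to 5954, 3 to 5 and 29 to 60 between the days in *siNcor1* (4819, 3 and 48), where only the groups compared gave 5 inflammatory genes. They were 5397 to 7374, 8 and 56 to 71 in *siOct4* (7312, 8 and 65), and 1009 to 3667, 4 to 7 and 25 to 65 for the change between days (2867, 6 and 56). Where a group was left with 1 library, it is assumed to vary like the others. Counts of inflammatory genes in this section include *Il6*, which passed the filter only through the *siOct4* day 3 libraries. They include *Saa3* only for the knockdowns at day 6. The sign turned, for values that were not called, for *Saa3* (−0.51) and *C3* (−0.070) at day 6 without *siOct4* day 6 replicate 2, for *C3* between the days in *siNcor1* (0.18) without *siNcor1* day 6 replicate 1, and for *Csf1* there (−0.12 without *siNcor1* day 3 replicate 2 and −0.051 without *siNcor1* day 6 replicate 2). Over all libraries left out, these values ranged from −0.51 to 1.06, from −0.070 to 1.01, from −0.48 to 0.18 and from −0.12 to 0.13. Without a trend the day 6 call of *Ccl7* was lost (adjusted p = 0.0571), and the difference of *Saa3* at day 3 was 2.59 with a pseudocount of 1 CPM. Of the values of single genes, the 5 named above turned sign without 1 library. Under the other settings 376 kept their direction and side of the threshold, 6 gained a call, 3 lost one and 1 changed in size. These include the values of *Saa3* that involve day 3, which were not tested and have no call. Without either *siOct4* day 6 library, the day 3 differences between the knockdowns did not change, and their SE was smaller (for *Ccl7*, 0.14 against 0.21). The 4 groups share one estimate of the spread. Replicates differed most in *siOct4* at day 6, with a chi-square of 18.7 per degree of freedom against 8.44 to 9.43 in the other groups. The cause of the changes in this section was not tested.

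The labels number the replicates but do not say that equal numbers share a batch, and deviations of same-numbered libraries correlated at 0.0981 and 0.281 between the knockdowns at day 3 and day 6, and at 0.0993 and −0.040 between the days in *siNcor1* and *siOct4*. With the replicate block, 222 genes were called at day 3, 4698 at day 6, 5218 and 7570 between the days and 3395 for the change, with 2, 6, 3, 8 and 7 inflammatory genes, where *C3* was added for the change (adjusted p = 0.0160), and 2, 67, 53, 68 and 59 pathway genes. Depth limits *Lcn2*, with at most 13 reads in a library, and *Il6*, with at most 7 at day 6.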
